A study of Mus musculus with 6 samples.

Results

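Metallothionein expression was read in cultured mouse CD4 T cells with and without Ezh2. The members were 3 genes, Mt1, Mt2 and their transcriptional regulator Mtf1. They were every probe set that the platform's annotation gave to exactly 1 of these symbols, 8 probe sets of the 34945 with 1 symbol: 2 for Mt1, 1 for Mt2 and 5 for Mtf1. In genes this is 3 of the 18193 with a named probe set. The genes were put forward with their readings on these arrays known, so their differences between genotypes and cultures are given as descriptions and carry no test.

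The 6 arrays crossed 2 genotypes with 3 cultures, 1 array per group: Ezh2 KO unpolarized, Ezh2 KO Th1 and Ezh2 KO Th2 cells, and wild type unpolarized, wild type Th1 and wild type Th2 cells, all labelled C57BL/6. Naive (CD44 low, CD62L high) CD4 T cells of the spleen were activated for 2 days on anti-TCR beta at 10 µg/ml (against the T cell receptor) with anti-CD28 at 1 µg/ml, in IL-2 at 15 ng/ml. They were then kept for 3 days without the 2 stimulating antibodies, 5 days in all. Th1 cultures also held 1 ng/ml IL-12 with an antibody blocking IL-4, Th2 cultures 10 ng/ml IL-4 with a blocking antibody to interferon gamma, while unpolarized cultures held both of these blocking antibodies. The labels used here name neither the Ezh2 allele and the part deleted, nor a Cre driver, nor the number of mice, so the spread between arrays may be technical.

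Metallothioneins are small proteins, rich in cysteine, that hold zinc, copper and cadmium in clusters of metal and sulphur. Mtf1 is a zinc finger factor that binds metal response elements in metallothionein promoters when free zinc rises. Glucocorticoids, cytokines that act through STAT3 and oxidative stress also raise Mt1 and Mt2. In mouse T cells the metallothioneins are known for buffering zinc and for restraining the response to interleukin-27. Ezh2 is the main catalytic subunit of PRC2, the Polycomb complex that places a silencing mark on histone H3.

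The promoter sequences are shown because Mt1 and Mt2 lie in the same orientation on chromosome 8 and had the same order of readings over the 6 arrays. The RefSeq windows (GRCm38.p6, plus strand) cover the 250 bases before each annotated start, chr8:94178839-94179088 for Mt1, chr8:94172368-94172617 for Mt2 and chr8:94152357-94152606 for Mt3, the next metallothionein gene. Capitals mark the metal response element core, TGCACNC or TGCGCNC on either strand.
Mt1: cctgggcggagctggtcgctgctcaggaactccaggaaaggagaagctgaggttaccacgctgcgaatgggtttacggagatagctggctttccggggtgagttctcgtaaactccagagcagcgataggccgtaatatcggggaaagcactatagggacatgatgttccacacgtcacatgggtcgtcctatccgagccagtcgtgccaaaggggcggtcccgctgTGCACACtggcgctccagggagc
Mt2: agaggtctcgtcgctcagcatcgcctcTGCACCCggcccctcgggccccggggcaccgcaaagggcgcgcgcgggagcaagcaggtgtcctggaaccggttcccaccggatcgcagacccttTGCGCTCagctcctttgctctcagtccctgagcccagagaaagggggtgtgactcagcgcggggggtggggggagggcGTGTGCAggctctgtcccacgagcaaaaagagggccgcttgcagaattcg
Mt3: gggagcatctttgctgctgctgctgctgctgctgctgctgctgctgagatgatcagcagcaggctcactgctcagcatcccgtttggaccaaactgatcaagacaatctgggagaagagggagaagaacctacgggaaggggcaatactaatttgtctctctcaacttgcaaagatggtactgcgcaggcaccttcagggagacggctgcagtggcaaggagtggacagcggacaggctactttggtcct

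In the windows of 300 bases that reach 50 bases past the start, the core occurred 3 times for Mt1, 4 times for Mt2 and once for Mt3. For Mt1, 1 match lay at bases -23 to -17 from the annotated start. The others lay at bases 3 to 9 and 21 to 27, past the printed stretch. All positions count from the annotated start, and the start used in these cells was not measured. For Mt2 the 4 matches began at bases -223, -128, -50 and 5. Of 32851 promoter windows of the same length in the mouse genome, 1.97% held 3 or more matches and 0.517% held 4 or more, while 25.7% held at least 1. The Mt4 window held 1 match, and the Mtf1 window, on chromosome 4, held 0. The antioxidant response element core, TGACNNNGC on either strand, occurred once for Mt2, at bases -79 to -71, and not in the other 4 windows, against 12.4% of all windows. It did not overlap a metal response core. CpG dinucleotides numbered 17 in the 250 bases before Mt1, 21 before Mt2, 22 before Mtf1 and 5 before Mt3, against a median of 6. These are matches of letters in fixed windows, and binding was not measured. Matches outside the windows were not counted, so a window without a match does not show that the promoter lacks one. The annotated starts of Mt2 and Mt1 were 6471 bases apart.

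The labels were checked on the same arrays. The trimmed mean was 500.003 on each array and the medians were 61.3 to 69.1. Ezh2 itself read 4876 to 4971 on the Ezh2 KO arrays and 6553 to 7677 on the wild type arrays, so much signal remained, and a probe set outside the deleted part would check nothing. The 6 measured CD4 T cell markers summed to between 46846 and 51050 in Ezh2 KO and between 43423 and 47760 in wild type, mostly from Cd3d and Cd3g. Cd4 itself read 433.0, 300.2 and 315.2 in Ezh2 KO unpolarized, Th1 and Th2 cells, against 496.2, 476.9 and 548.1 in wild type, without overlap, and Cd5 was also below wild type on every Ezh2 KO array. Neither passed the genotype test (adjusted p = 0.0914 for Cd4 and 0.0532 for Cd5, limma). Cd247 went the other way and passed as higher in Ezh2 KO (log2 difference 0.47, adjusted p = 0.0438, limma). Cd3e and Cd3g also read above wild type on every Ezh2 KO array, without passing. The 2 CD8 markers summed to 373.7 to 539.8 in Ezh2 KO and 389.3 to 414.4 in wild type. The 8 myeloid markers summed to 243.3 to 340.2 in Ezh2 KO and 256.0 to 412.9 in wild type, with 6 of 8, Lyz2 among them, on all 6 arrays below the low-signal limit of 64.43, the median of all values. Of 4 measured B cell markers, Ms4a1 passed as higher in Ezh2 KO (adjusted p = 0.0472, limma), while Cd79a and Pax5 stayed under that limit throughout. Cd79b was higher in each culture without passing (adjusted p = 0.0604, limma). It read 136.0, 102.0 and 244.2 in Ezh2 KO unpolarized, Th1 and Th2 cells, against 108.8, 60.3 and 159.8 in wild type. The B cell list summed to 319.7 to 940.1 in Ezh2 KO and 120.0 to 265.5 in wild type. Of 4 mast cell and basophil markers, Mcpt4, Fcer1a and Ms4a2 were under the limit throughout. The list's sum, 101.8 to 1073 in Ezh2 KO and 34.4 to 101.8 in wild type, was mostly Cpa3 in Ezh2 KO, which read 92.7, 96.9 and 1061 there, against 3.92, 40.1 and 25.5 in wild type (adjusted p = 0.0879, not past the threshold). Every wild type reading of Cpa3 was under the limit, so it entered the test through its Ezh2 KO arrays alone. The part of these cells in the results was not tested.

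The culture labels were read against helper cell markers. Tbx21, the Th1 regulator, was highest in the Th1 culture of either genotype, at 488.5, 642.8 and 335.7 in Ezh2 KO unpolarized, Th1 and Th2 cells, against 90.0, 530.4 and 80.8 in wild type. Gata3, the Th2 regulator, was highest in the Th2 culture, at 970.5, 686.3 and 1962 in Ezh2 KO, against 575.4, 475.0 and 830.4 in wild type. The 5 Th1 markers summed to 6489 to 10859 in Ezh2 KO and 1642 to 4219 in wild type, and 3 of 5 passed as higher in Ezh2 KO, where 8.35% of all tested genes did. Of these, Ifng and Il12rb2 were under the low-signal limit on every wild type array and entered the test through their Ezh2 KO arrays alone. Their entry is thus not independent of their difference. The 4 measured Th2 markers summed to 987.3 to 3961 in Ezh2 KO and 537.4 to 1095 in wild type, and Il4 alone passed. Ifng, the Th1 cytokine, read 266.3, 766.8 and 608.3 in Ezh2 KO, against 6.07, 25.8 and 4.03 in wild type. The part of these helper cell differences in the metallothionein readings was not tested. In bulk RNA, fewer cells of a type and less RNA per cell cannot be told apart.

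Mt1 encodes one of the 2 metallothioneins that most tissues make. Its bright probe set read 4614, 5353 and 8515 in Ezh2 KO unpolarized, Th1 and Th2 cells, against 1519, 2756 and 2534 in the matching wild type cells. Every Ezh2 KO array lay above every wild type array. The reading in Ezh2 KO was 3.04-fold higher in unpolarized, 1.94-fold higher in Th1 and 3.36-fold higher in Th2 cells. The mean log2 difference was 1.44 ± 0.42 (SD, n = 3 pairs of arrays), or 2.71-fold. The identifier of this probe set carries the suffix _s_at, which Affymetrix gives where probes can match transcripts of more than 1 gene, so its signal is not certain to be from Mt1 alone. The other Mt1 probe set read 5.82, 21.98 and 4.78 in Ezh2 KO and 6.07, 30.5 and 22.5 in wild type, 6 readings below the low-signal limit, and carries no usable level.

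Mt2, the partner gene with the same metal-binding role, read 2599, 3841 and 5683 in Ezh2 KO unpolarized, Th1 and Th2 cells, against 644.5, 1549 and 1190 in wild type. Here too the genotypes did not overlap. Ezh2 KO was 4.03-fold higher in unpolarized, 2.48-fold higher in Th1 and 4.78-fold higher in Th2 cells, a mean log2 difference of 1.86 ± 0.49 (SD, n = 3), or 3.63-fold. For both genes the difference was smallest in Th1 and largest in Th2 cells. Over all 11572 tested genes, 20.1% had every Ezh2 KO array above every wild type array, and 3.85% were 2-fold or more higher in every culture. Mt2 met that 2-fold mark and Mt1, at 1.94-fold in Th1 cells, was just outside. These shares are given as background only, since the genes were chosen with these values in view.

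**Figure D1:**
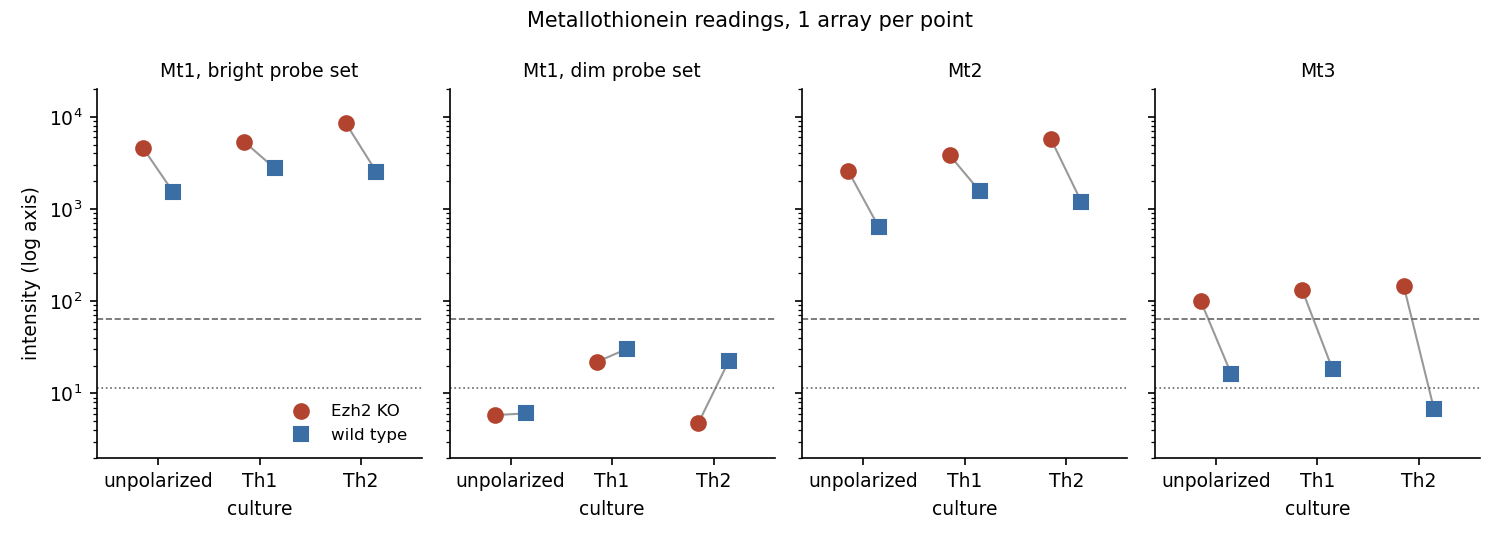
Intensity (log axis) of the 2 Mt1 probe sets, of Mt2 and of Mt3 by culture, 1 array per point, Ezh2 KO as red circles left of wild type as blue squares, with grey lines joining the arrays of 1 culture. The dashed line is the low-signal limit of 64.43 and the dotted line the floor of 11.33. The bright Mt1 and the Mt2 probe sets are higher in Ezh2 KO in all 3 cultures, the dim Mt1 probe set stays under the limit, and Mt3 passes the limit on the Ezh2 KO arrays only.

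The order of the 6 arrays was the same for both genes: Ezh2 KO Th2, Ezh2 KO Th1 and Ezh2 KO unpolarized, then wild type Th1, wild type Th2 and wild type unpolarized. With 1 array per group, no spread within a group stands beside these steps, so neighbours in the order cannot be said to differ. Since the Mt1 probe set may also match transcripts of another gene, the readings of Mt1 and Mt2 may not be independent. Within Ezh2 KO, the log2 differences of Mt1 were 0.21 for Th1 minus unpolarized and 0.88 for Th2 minus unpolarized. Within wild type they were 0.86 and 0.74. Mt2 gave 0.56 and 1.13 in Ezh2 KO, and 1.26 and 0.88 in wild type. Both polarized cultures thus read above the unpolarized culture of the same genotype for both genes. The 2 polarized cultures had opposite orders in the 2 genotypes. Th2 minus Th1 was 0.67 in Ezh2 KO and -0.12 in wild type for Mt1, and 0.57 in Ezh2 KO and -0.38 in wild type for Mt2. A step of 2-fold or more above the unpolarized culture was read for Mt2 in Ezh2 KO Th2 cells (2.19-fold) and in wild type Th1 cells (2.40-fold), and for Mt1 in none. In Ezh2 KO, 3.29% of tested genes made such a step in Th1 and 4.29% in Th2 cells, and 3.38% were that much higher in Th2 than in Th1 cells. In wild type the shares were 3% in Th1 cells, 2.65% in Th2 cells and 2.89% for Th2 over Th1. For culture effects over both genotypes, 0 of 11572 genes passed limma's test in any of the 3 contrasts, although 632 genes (Th1 minus unpolarized), 775 (Th2 minus unpolarized) and 878 (Th2 minus Th1) had an unadjusted p under 0.05.

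Mtf1, the zinc-sensing activator of both genes, gave readings that depended on the probe set. Its 5 probe sets are lettered A to E here by falling mean brightness. Probe set A read 367.5, 357.8 and 404.8 in Ezh2 KO unpolarized, Th1 and Th2 cells, against 425.8, 469.5 and 463.1 in wild type. Ezh2 KO was lower in each culture, without overlap, by a mean log2 difference of -0.27 ± 0.11 (SD, n = 3). Over all tested genes 27.5% had every Ezh2 KO array below every wild type array. Probe set C went the other way. It read 274.6, 240.4 and 292.7 in Ezh2 KO, against 186.2, 142.0 and 164.2 in wild type, a difference of 0.72 ± 0.14. Probe set B read 241.0, 252.8 and 318.0 in Ezh2 KO, against 230.7, 220.3 and 185.6 in wild type, or 0.35 ± 0.38, with most of the difference in Th2 cells.

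The remaining Mtf1 probe sets were dim. Probe set D was under the low-signal limit on 4 of 6 arrays and gave 0.62 ± 0.58. Probe set E was under it on all 6 arrays and gave -0.48 ± 1.46. The sources used here do not give the place of each probe set along the transcript. With all 5 averaged, the Mtf1 difference was 0.19 ± 0.33, a mean that counts the readings of E without a usable level. Probe set A was lower and B and C were higher in Ezh2 KO in every culture. Probe set D was higher in unpolarized and Th2 cells and level in Th1 cells (0.015 on the log2 scale). Its wild type readings were all under the low-signal limit. No direction for the gene as a whole can thus be read from these arrays. Culture moved probe set A little, by 0.14 or less on the log2 scale, up or down, between unpolarized and polarized cells of either genotype.

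**Figure D2:**
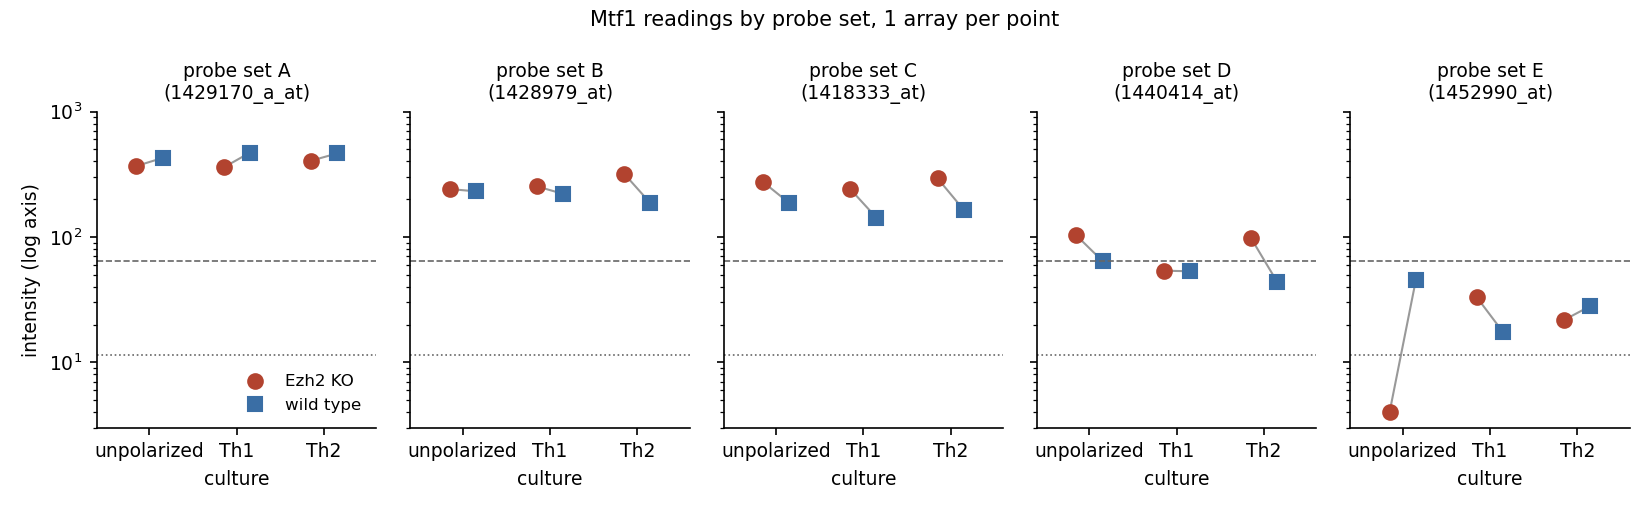
Intensity (log axis) of the 5 Mtf1 probe sets by culture, 1 array per point, Ezh2 KO as red circles left of wild type as blue squares, with the low-signal limit of 64.43 dashed and the floor of 11.33 dotted. Panels run by falling mean brightness, A to E. Probe set A is lower and probe sets B and C are higher in Ezh2 KO in all 3 cultures.

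Other genes were tested for the genotype effect with limma over all 11572 tested genes, with culture as a block. The threshold was a Benjamini-Hochberg adjusted p under 0.05. With 1 array per group, the adjusted p and the SD rest on how even a difference was across the 3 cultures. They do not measure the spread between mice. Of the 11572 tested genes 16.3% passed, 8.35% higher and 7.98% lower in Ezh2 KO. Median centring of the arrays gave 862 higher and 411 lower genes, in place of 966 and 924. No gene (0) passed limma's test without the filter on dim genes, where 4711 had an unadjusted p under 0.05, or after dropping any 1 culture, where 2952 to 3227 did. Every call in these results is lost in those settings.

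Of the 2 metallothionein genes outside the members, Mt3, best known from the brain, entered the test, through its Ezh2 KO arrays alone, so its entry is not independent of its difference. It rose to 100.5, 132.6 and 147.7 in Ezh2 KO unpolarized, Th1 and Th2 cells, against 16.3, 18.2 and 6.69 in wild type, where all 3 readings were under the low-signal limit. With wild type set at that limit the rise was at least 1.95-fold, and the measured log2 difference was 3.06 ± 0.57 (SD, n = 3, adjusted p = 0.0217), a size that rests on readings without a usable level. Without the filter the adjusted p was 0.0797, and a filter on the mean leaves Mt3 out. Mt4, known from stratified epithelia, read 44.7, 20.01 and 9.63 in Ezh2 KO, against 21.4, 17.7 and 23.6 in wild type, too dim to test.

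The genes around the cluster were taken as the 6 nearest with a named probe set on either side of Mt2 and Mt1, in RefSeq order. Of these 12, Mt3 and Mt4 included, 9 were tested, and Mt3 was the 1 that passed. Over all tested genes 16.3% passed, so this count is a description and not a trait of the locus. Nup93, a nuclear pore protein gene and the next on the Mt1 side, gave 0.15 ± 0.18 (adjusted p = 0.364). Bbs2, beyond Mt4 on the other side, gave 0.21 ± 0.83 (adjusted p = 0.702). The 2 genes farthest out beyond Nup93 were higher in all 3 cultures without passing: 9330175E14Rik at 0.69 ± 0.28 (adjusted p = 0.056) and Nlrc5, an activator of MHC class I genes, at 0.65 ± 0.36 (adjusted p = 0.082). The others with enough signal, Nudt21, Ogfod1 and Herpud1, had mean differences between -0.22 and 0.23. Slc12a3 was under the low-signal limit on 5 of 6 arrays and entered the test through wild type unpolarized cells (71.3) alone. Its difference of -0.88 ± 1.53 rests on that reading. 4930488L21Rik and Mir138-2 were too dim to test.

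**Figure D3:**
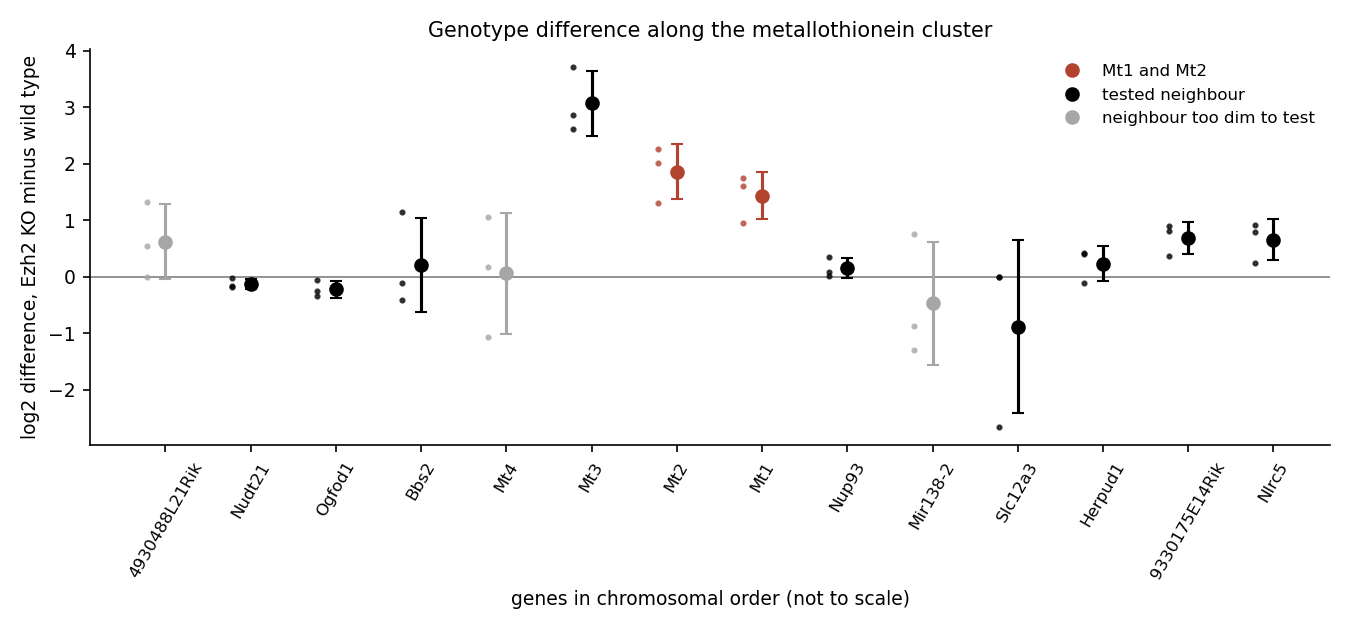
Log2 difference, Ezh2 KO minus wild type, of the genes along the metallothionein cluster in chromosomal order (spacing not to scale). Large points are means and bars the SD over 3 cultures, small points left of them are the single cultures, red marks Mt1 and Mt2, black the tested neighbours and grey those too dim to test. Mt3, Mt2 and Mt1 lie at measured differences of 3.06, 1.86 and 1.44, between Mt4 at 0.06 and Nup93 at 0.15. All 6 Mt4 readings and all 3 wild type Mt3 readings were under the low-signal limit. The positions of Mt4 and Mt3 thus rest on readings without a usable level.

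Zinc transporters changed singly. Of 11 tested importers of the Slc39a family, 2 rose and 1 fell, or 27.3% against 16.3% of all genes, with a list median of 0.03 against -0.07. Slc39a14, an importer of zinc, iron and manganese, read 425.4, 533.6 and 602.3 in Ezh2 KO unpolarized, Th1 and Th2 cells, against 271.7, 259.9 and 250.7 in wild type (0.98 ± 0.31, adjusted p = 0.0394). Slc39a4, the importer lost in the zinc deficiency acrodermatitis enteropathica, rose by 0.93 ± 0.31 (adjusted p = 0.0413). Slc39a10, which Mtf1 is known to repress in mouse cells, fell to 1358, 1322 and 1271 in Ezh2 KO, against 2225, 2178 and 2773 in wild type (-0.85 ± 0.24, adjusted p = 0.0369, or 0.0507 with median centring). Slc39a13 gave -1.21 ± 1.79 and did not pass.

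Of 8 tested zinc exporters of the Slc30a family, 1 rose and 0 fell (12.5%, median -0.11). It was Slc30a4, which loads zinc into vesicles, at 3866, 4159 and 2931 in Ezh2 KO unpolarized, Th1 and Th2 cells, against 2643, 2078 and 1236 in wild type (0.93 ± 0.35, adjusted p = 0.0462, or 0.0767 without the culture block). Slc30a1, the zinc exporter of the cell surface and a classical Mtf1 target, read 204.0, 246.4 and 186.8 in Ezh2 KO, against 208.3, 157.8 and 197.6 in wild type (0.18 ± 0.40, adjusted p = 0.53). Its values overlapped between the genotypes. Slc30a3 gave -0.77 ± 1.07, Slc30a2 -0.57 ± 0.45 and Slc30a7 -0.36 ± 0.16, none past the threshold.

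Of 8 tested targets of Mtf1 outside the metallothioneins, 0 rose and 1 fell, the Slc39a10 already described (12.5% against 16.3% of all genes, median -0.16). With a filter on the mean at the 60th percentile of genes, 2 rose and 2 fell. Gclc, the catalytic subunit of the first enzyme of glutathione synthesis, gave -0.68 ± 0.27 (adjusted p = 0.0547), Selenow, a small selenoprotein, 0.35 ± 0.25 (adjusted p = 0.146), and Pgf, a dim growth factor gene, -0.60 ± 2.11 (adjusted p = 0.658). The lists overlap, and Slc30a1, Slc39a10, Gclc and Slc40a1 stand in more than 1.

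Of 11 copper genes, 0 rose and 1 fell (9.09% against 16.3% of all genes, median 0.01): Slc31a1, the copper importer of the cell surface, at 468.6, 403.1 and 391.0 in Ezh2 KO unpolarized, Th1 and Th2 cells, against 715.2, 736.9 and 838.7 in wild type (-0.86 ± 0.25, adjusted p = 0.037). It did not pass with median centring (adjusted p = 0.057) or with the mean of its probe sets (-0.39, adjusted p = 0.0709). Atp7b gave -0.92 ± 0.60, Sco1 0.80 ± 0.64 and Ccs, the copper chaperone of superoxide dismutase, -0.46 ± 0.13, none past the threshold. Of 9 iron genes 1 rose and 1 fell (22.2% against 16.3%, median -0.13). Hmox1, the heme-degrading enzyme, rose to 150.4, 183.5 and 179.5 in Ezh2 KO, against 55.9, 45.6 and 59.6 in wild type, all under the low-signal limit. Against that limit the rise was at least 2.65-fold (measured difference 1.68 ± 0.30, adjusted p = 0.0226), and Hmox1 too entered the test through its Ezh2 KO arrays alone. Tfrc, the transferrin receptor, fell by 0.64 ± 0.16 on the log2 scale (adjusted p = 0.0403, or 0.0814 with median centring). Aco1 gave -0.38 ± 0.25 and Hfe 0.34 ± 0.14, neither past the threshold.

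Genes driven by NRF2, the factor of the antioxidant response, had the most calls of the lists with more than 1 tested gene. Of 10 tested, 5 rose and 0 fell (50% against 16.3% of all genes), with a median of 0.57. Srxn1, which repairs oxidized peroxiredoxins, rose to 274.5, 340.2 and 424.8 in Ezh2 KO unpolarized, Th1 and Th2 cells, against 14.1, 85.4 and 74.6 in wild type (2.93 ± 1.2, adjusted p = 0.045). Nqo1, a quinone reductase, rose by 1.05 ± 0.18 (adjusted p = 0.0265), Osgin1, a growth inhibitor induced by oxidative stress, by 1.33 ± 0.19 (adjusted p = 0.0217), and Gsr, glutathione reductase, by 1.02 ± 0.23 (adjusted p = 0.0299). The wild type unpolarized reading of Srxn1, 14.1, was under the low-signal limit, so the size of its difference rests in part on it. The fifth is Hmox1, already counted among the iron genes, which entered the test through its Ezh2 KO arrays alone. The list was chosen with earlier results of these data known, so its share of calls is a description. The others, Gclc, Gclm, Txnrd1, Txn1 and Abcc1, did not pass, with mean differences between -0.68 and 0.12. With the filter on the mean at the 60th percentile 1 rose and 1 fell. That filter left Hmox1, Srxn1, Nqo1 and Osgin1 out of the test, while Gsr still passed.

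Of 8 tested glucocorticoid responsive genes, 2 rose and 0 fell (25%, median 0.31). Sgk1, a kinase also known in helper T cells, read 4323, 5619 and 5939 in Ezh2 KO unpolarized, Th1 and Th2 cells, against 702.9, 1206 and 844.7 in wild type (2.55 ± 0.30, adjusted p = 0.0182). Fkbp5, a chaperone partner of the glucocorticoid receptor, rose by 1.00 ± 0.19 (adjusted p = 0.0277). Klf9 gave -0.66 ± 0.25 (adjusted p = 0.0527) and Ddit4 0.48 ± 0.28 (adjusted p = 0.098). Tsc22d3, which encodes GILZ, gave -0.10 ± 0.21 and the receptor gene Nr3c1 0.27 ± 0.21, neither past the threshold.

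Of 10 tested STAT3 signalling genes, 1 rose and 1 fell (20%, median 0.31). Il6st, the shared receptor chain of the IL-6 family, fell to 163.7, 171.5 and 165.9 in Ezh2 KO unpolarized, Th1 and Th2 cells, against 437.4, 351.2 and 399.1 in wild type (-1.24 ± 0.19, adjusted p = 0.0233). Il21r rose by 0.67 ± 0.22 (adjusted p = 0.0457, or 0.0674 with median centring). The IL-6 receptor gene Il6ra gave -2.26 ± 1.51, and the STAT3 targets Socs3 and Bcl3 0.77 ± 0.81 and 0.69 ± 0.64, none past the threshold. Socs3 read 2958, 2890 and 5478 in Ezh2 KO unpolarized, Th1 and Th2 cells, against 2859, 1907 and 1746 in wild type, so its difference lay mostly in the Th2 pair.

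Of 9 tested heat shock genes, 0 passed in either direction (median -0.02), and the largest values were 0.88 ± 0.99 for Hspb1 and -0.31 ± 0.77 for Hspa1b. Of 11 hypoxia responsive genes, 0 rose and 2 fell (18.2%, median -0.16). They were Pdk1, the kinase that holds back pyruvate oxidation, by 0.75 ± 0.21 on the log2 scale (adjusted p = 0.0392), and Ankrd37 by 0.59 ± 0.19 (adjusted p = 0.0483, or 0.105 with median centring and 0.0513 without a floor). Counting each gene once, 18 of the 91 tested genes of the 11 lists passed (19.8% against 16.3%), 12 higher and 6 lower, with a median of -0.0046. Of these 18, Mt3 and Hmox1 are the 2 that lay below the low-signal limit on every wild type array. The filter on the mean at the 60th percentile changed the other lists as well, except heat shock and hypoxia: 1 zinc importer rose and 2 fell, 2 exporters rose and 2 fell, 1 copper gene rose and 2 fell, and 0 iron genes rose and 2 fell. In the same setting 4 glucocorticoid responsive genes rose and 1 fell, and 3 STAT3 signalling genes rose and 0 fell. Slc39a4, Hmox1 and Il6st were left out by that filter, so their calls were not tested in it.

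**Figure D4:**
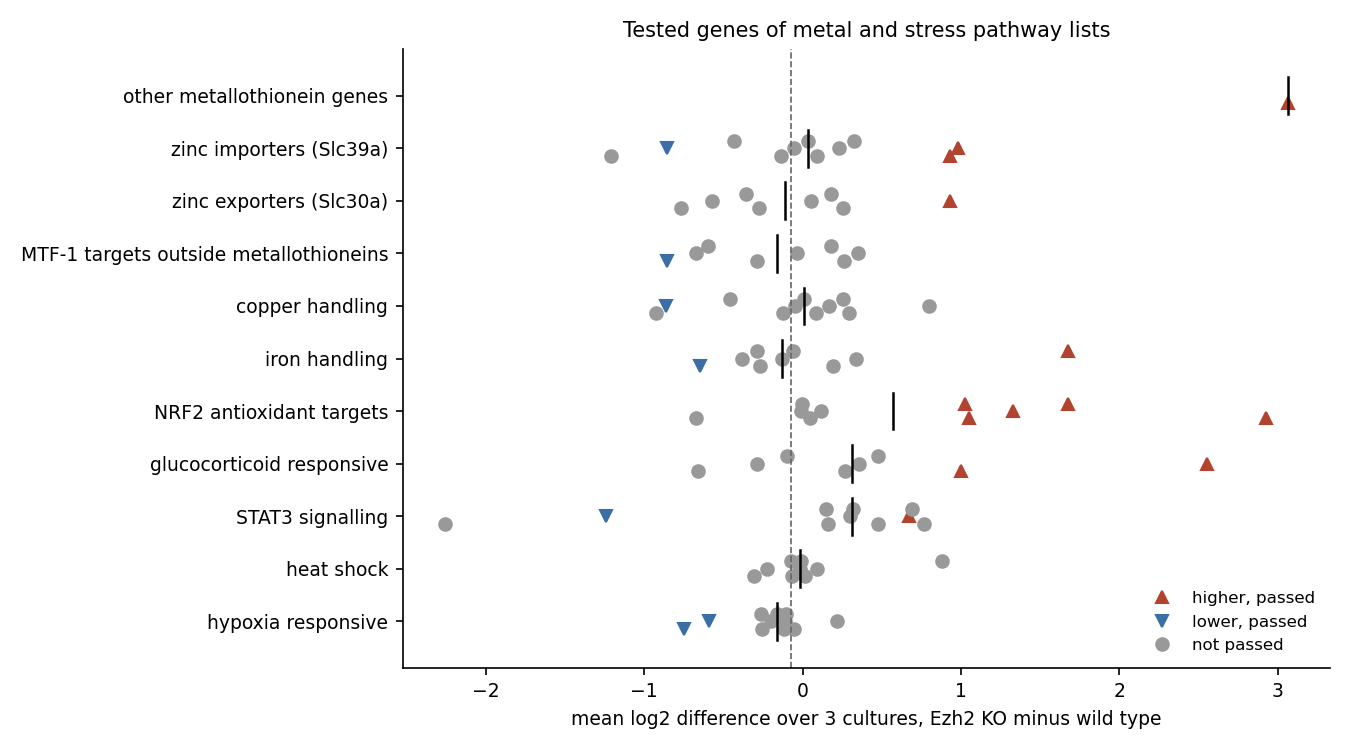
Mean log2 difference over 3 cultures, Ezh2 KO minus wild type, of each tested gene of the 11 pathway lists (red triangles up, higher and past the threshold; blue triangles down, lower and past it; grey circles, not past it). Black bars are list medians and the dashed line is the median of all 11572 tested genes at -0.07. The NRF2 list, at 0.57, has the highest median of the lists with more than 1 tested gene.

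Genes with readings most like the mean of Mt1 and Mt2 were picked by Pearson correlation of log2 values over the 6 arrays, among 3573 tested genes with a range of at least 1 on the log2 scale. The 6 points share the genotype contrast, and 11.7% of these genes had a correlation over 0.9, so likeness of this size was common and is given without a test. The closest was Med12l, which encodes a Mediator subunit, with r = 0.9988. It read 161.8, 212.8 and 298.1 in Ezh2 KO unpolarized, Th1 and Th2 cells, against 48.9, 92.8 and 81.0 in wild type, the order of arrays seen for Mt1 and Mt2. This likeness is that of its brightest probe set: with the mean of its probe sets the genotype difference of Med12l was 0.60, against 1.60, and that of Trim6 0.82, against 1.17. The next were Perp, a membrane protein gene of the p53 response, at 0.9955, Trim6, of the tripartite motif family, at 0.9952, Sypl, a synaptophysin relative, at 0.9921, and Mylip, a ubiquitin ligase that degrades the LDL receptor, at 0.9920. Perp read 510.3, 678.8 and 1013 in Ezh2 KO, against 133.0, 244.1 and 221.0 in wild type. Trim6 read 67.3, 89.9 and 124.3 in Ezh2 KO, against 27.6, 53.2 and 44.7 in wild type, where every reading was under the low-signal limit. Its likeness and its difference thus rest on wild type readings without a usable level. Trim6 also entered the test through its Ezh2 KO arrays alone. By Spearman's measure 100 genes shared the highest possible value of 1 with the mean of Mt1 and Mt2, and 4 of these 5 were among them.

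For Mtf1 probe set A the closest were Sema7a (r = 0.9963), Ndrg2 (0.9928), Dgcr6 (0.9864), Hook2 (0.9773) and Eaf2 (0.9769), with 3.05% of genes over 0.9. Sema7a, a membrane-anchored semaphorin, read 120.4, 104.7 and 225.3 in Ezh2 KO unpolarized, Th1 and Th2 cells, against 373.4, 766.7 and 592.1 in wild type. Since the Mtf1 probe sets differ in direction, this likeness belongs to that probe set alone.

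**Figure D5:**
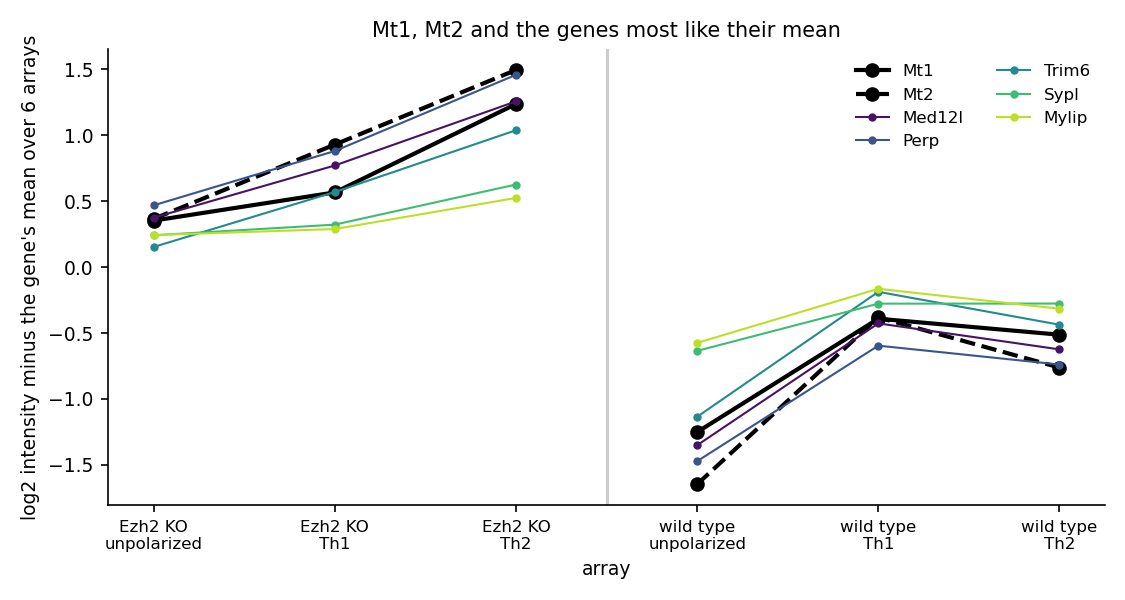
Log2 intensity minus each gene's mean over the 6 arrays for Mt1 (solid black), Mt2 (dashed black) and the 5 genes most like their mean (colours), with the Ezh2 KO arrays left of the wild type arrays and no line across genotypes. Med12l, Perp, Trim6 and Mylip have the array order of Mt1 and Mt2, while Sypl has nearly equal values in wild type Th1 and Th2 cells.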

How the data were processed

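RNA of 6 cultures, 1 Affymetrix array each, was measured. The authors deposited linear intensities, 1 value for each probe set and array. Per the submitters' processing notes they came from Affymetrix Expression Console, with no version in the sources used here, nor the way probes were summarized. After trimming 2% from each end the mean was 500.003 on each array, as scaling to a common target leaves it.

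Of 45101 probe sets, 64 are controls, 34945 had 1 gene symbol, 932 several and 9160 none. Values below their 20th percentile (11.33) were set to it before log2. Each gene was read by its brightest probe set, and 11572 genes with at least 1 value at or above the overall median (64.43) were tested. Where all arrays of a genotype were under 64.43, the fold is a bound taken against that value. The genotype and culture effects came from limma 3.58.1 (R 4.3.3) on an additive model of both, which leaves 2 residual degrees of freedom, with Benjamini-Hochberg adjustment over all tested genes. The fit was tested on simulated data. The number of arrays limits the precision.

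The members and lists were chosen with earlier results of these data known. Named were the members, up to 4 tested genes per list with the largest differences, 6 neighbours on either side, the 5 most alike genes and Ezh2. Slc30a1, Slc40a1, Gsr, Gclm, Txnrd1, Txn1, Abcc1, Il21r, Tsc22d3, Nr3c1 and the markers were named after their values were seen. Listed genes with no probe set of their own were Ftl1, Prdx1, G6pdx and Hsf1. Alternatives changed the scaling, the floor, the filter, the probe set rule, the block and the cultures used.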

Additional observations from a re-analysis of the deposited data

Results flagged for a closer look

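The following results stood out because a culture difference had opposite signs in the 2 genotypes. The difference between the genotypes was not tested, since each rests on 4 single arrays.

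For Mt1, Th2 minus Th1 was 0.67 in Ezh2 KO and -0.12 in wild type on the log2 scale, a difference of 0.79. For Mt2 it was 0.57 in Ezh2 KO and -0.38 in wild type, a difference of 0.95. For Mtf1 probe set A the steps were smaller: Th1 minus unpolarized was -0.04 in Ezh2 KO and 0.14 in wild type, a difference of -0.18, and Th2 minus Th1 was 0.18 in Ezh2 KO and -0.02 in wild type, a difference of 0.20.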

How the results depend on the processing

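The genotype differences of Mt1 and Mt2 kept their sign in every alternative tried, and stayed within 1 SD with median centring, quantile normalization, either floor and any 1 culture left out. Leaving out 1 culture gave 1.28 to 1.68 for Mt1, 1.66 to 2.13 for Mt2 and -0.30 to -0.20 for Mtf1. The exception was the mean of all probe sets, which adds the dim Mt1 probe set. For Mt1 it gave 0.47 between genotypes, 0.65 for Th2 minus unpolarized and -0.21 for Th2 minus Th1 (0.27 in the reported reading), and for Mtf1 0.19 between genotypes, -0.15 for Th1 minus unpolarized and -0.010 for Th2 minus unpolarized. Reading Mtf1 by its other probe sets, an alternative chosen after seeing the data, gave 0.35 (probe set B), 0.72 (C), 0.62 (D) and -0.48 (E) between genotypes. In the same way its Th1 minus unpolarized difference was -0.29 (C) and -0.60 (D), its Th2 minus unpolarized difference 0.043 (B), -0.045 (C) and -0.31 (D), and its Th2 minus Th1 difference 0.25 (C) and 0.29 (D). Median centring and quantile normalization moved Th2 minus unpolarized of Mtf1 to 0.17 and 0.16. The cause of these shifts between probe sets was not tested.

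Over all genes, 1890 passed for genotype. Filtering genes by mean at the 60th percentile gave 3050 among fewer tested genes, and the fit without the culture block gave 2838. Without a filter it was 0, both for all genes and for the 18 calls of the lists. Without any 1 culture, which leaves 1 residual degree of freedom, both counts were also 0. Other alternatives gave 1273 to 2328 genes. Wherever any gene passed, the lists held 13 to 26 calls. The measured Mt3 difference ranged over 1.75 to 3.32, with adjusted p = 0.00278 to 0.11 (limma). Signal over background limits dim genes such as Mt3, Hmox1 and Srxn1. Culture, the block of the reported fit, pairs the arrays, and the labels carry no replicate numbers to pair them otherwise.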
